A study of Mus musculus with 8 samples.

Results

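The nuclear-encoded genes of the mitochondrial respiratory chain were followed by complex in small intestinal crypts of irradiated mice. They were taken from the deposited table by gene symbol: Nduf genes, Sdha to Sdhd and the Sdhaf genes, Uqc genes, Cox genes of the nuclear numbering (4 to 8 and 10 to 19) and Atp5 genes. The rule gave 107 of the 17634 genes in the table, and 103 of the 107 had enough counts to be tested. Crypts came from 4 miR-29ab1-/- samples, in which the locus of miR-29a and miR-29b-1 is deleted, and from 4 wild-type (WT) samples. All 8 were C57BL/6N and were taken 3 days after irradiation, so no group was unirradiated. The labels do not say how the locus was deleted, which cells lack it or whether each sample is 1 animal, and p-values measure only the spread between these samples.

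The respiratory chain of the inner mitochondrial membrane moves electrons from NADH (complex I) and succinate (complex II) through ubiquinol (complex III) to oxygen (complex IV), and ATP synthase (complex V) uses the proton gradient that results. A few core subunits are made in the mitochondrion, while most subunits, and the assembly factors that build the complexes without staying in them, are encoded in the nucleus. In the intestinal epithelium, the differentiated absorptive cells are known to be rich in mitochondria and to absorb dietary fat.

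Libraries held 9481191 to 14612782 counts in miR-29ab1-/- and 10719659 to 16231089 in WT. Differentiation markers differed strongly between the groups: all 20 enterocyte markers examined were called higher, and their summed level was 111072, 94758, 34714 and 52971 CPM (counts scaled by effective library size) in miR-29ab1-/- replicates 1 to 4, against 14718, 14784, 5476 and 3057 CPM in WT replicates 1 to 4. Of 12 crypt epithelium markers, 1 was called higher (Epcam) and 6 lower (Top2a, Ascl2, Pcna, Mki67, Krt18 and Lgr5). For comparison with these marker counts, 24.2% of all 12908 tested genes were called higher and 23.1% lower. Of the 6 fibroblast and smooth muscle and the 10 immune markers tested, 0 were called, also by DESeq2 or limma-voom and at an unadjusted p under 0.05; with replicate number as a block, 1 immune marker was called in each direction. The 4 Y-linked transcripts counted summed to 1285 to 1659 counts in miR-29ab1-/- replicates 1 to 3 and to 1 count in replicate 4, against 1528 to 2061 counts in WT replicates 1 to 3 and 3 counts in replicate 4. Replicate 4 thus stands apart in both genotypes. Y-linked genes are carried by males only, so sex differed between replicate 4 and replicates 1 to 3 in both genotypes.

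The deleted locus makes miR-29a and miR-29b-1. Their mature strands, and that of miR-29c from another locus, share 1 seed (bases 2 to 8, in capitals; RefSeq, GRCm38.p6, with miR-29a at chr6:31062673-31062694 and miR-29b at chr6:31063025-31063047, minus strand). The same mature miR-29b strand is also listed for another gene, Mir29b-2 (chr1:195037091-195037113, plus strand), on the chromosome of miR-29c.
mmu-miR-29a-3p: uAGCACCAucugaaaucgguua
mmu-miR-29b-3p: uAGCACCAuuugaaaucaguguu
mmu-miR-29c-3p: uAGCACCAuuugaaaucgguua
The complement of that seed (TGGTGCT, transcript strand only) was found in the longest annotated 3′ UTR of 7 of the 105 respiratory chain genes that had one (6.67%), against 2136 of 12677 tested genes (16.8%; GENCODE M21, GRCm38). The UTRs of the respiratory chain genes were shorter, with a median of 312 bases against 1336 for all tested genes. The 7 genes were Atp5g1, Cox10, Cox11, Ndufb8, Sdhaf2, Sdhc and Uqcc3. Cox10, the enzyme that farnesylates heme for complex IV, was the only one of them past the test's threshold, and it was lower. None of the 7 genes called higher held a match. The windows of Cox10 (chr11:63963965-63963991, minus strand) and of Sdhc, a membrane anchor of complex II (chr1:171128673-171128699, minus strand), are shown with the match in capitals, because Cox10 was called and the match in Sdhc was the only one followed by an A.
Cox10: gcagatcatcTGGTGCTgtgtcgtcac
Sdhc: gctttgtttgTGGTGCTaggggtcaaa

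Promoters were searched for letters typical of 2 regulators of respiratory genes, NRF1 (GCGCANGCG) and ETS-family factors such as GABPA (CCGGAAG), on both strands of the window from 250 bases before to 50 after each start (RefSeq, GRCm38.p6). A window was listed for 88 of the 107 genes. The NRF1 letters were found in 25 of the 88 (28.4%), against 14.6% of the 10299 tested genes with a window, and the ETS letters in 25 (28.4%) against 19.7%. The shorter letters GGAAG reversed the order, with 73.9% of the 88 windows against 79.1%. Among genes called lower, each motif was found in 2 of 8 windows, and among genes called higher each was found in 1 of 7. The 4 windows of lower genes that held a match are shown, 3 from complex I assembly factors and the fourth from Cox10, with the match in capitals. In Ndufaf4 and Ndufaf5 the capitals cover a palindrome in which the matches on the 2 strands overlap. The windows lie at chr4:24897833-24898132 (plus strand, Ndufaf4), chr2:140170396-140170695 (plus, Ndufaf5), chr2:119662785-119663084 (minus, Ndufaf1) and chr11:64079423-64079722 (minus, Cox10). A match describes the letters and is not evidence of binding.
Ndufaf4: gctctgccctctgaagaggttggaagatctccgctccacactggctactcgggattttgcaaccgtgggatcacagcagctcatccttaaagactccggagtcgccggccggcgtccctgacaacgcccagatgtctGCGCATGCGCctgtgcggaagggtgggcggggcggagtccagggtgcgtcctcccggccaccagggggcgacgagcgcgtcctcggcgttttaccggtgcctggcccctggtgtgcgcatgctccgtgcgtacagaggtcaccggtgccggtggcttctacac
Ndufaf5: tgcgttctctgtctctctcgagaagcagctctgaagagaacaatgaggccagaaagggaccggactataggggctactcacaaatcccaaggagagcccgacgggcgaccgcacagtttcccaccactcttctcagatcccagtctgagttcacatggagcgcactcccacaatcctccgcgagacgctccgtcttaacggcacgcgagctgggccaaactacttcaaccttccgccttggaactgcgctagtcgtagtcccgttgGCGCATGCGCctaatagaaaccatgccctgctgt
Ndufaf1: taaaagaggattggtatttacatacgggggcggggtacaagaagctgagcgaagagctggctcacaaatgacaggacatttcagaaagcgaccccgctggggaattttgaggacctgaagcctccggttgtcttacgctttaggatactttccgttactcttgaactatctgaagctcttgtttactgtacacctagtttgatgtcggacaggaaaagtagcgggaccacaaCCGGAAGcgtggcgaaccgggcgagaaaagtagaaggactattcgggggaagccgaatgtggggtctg
Cox10: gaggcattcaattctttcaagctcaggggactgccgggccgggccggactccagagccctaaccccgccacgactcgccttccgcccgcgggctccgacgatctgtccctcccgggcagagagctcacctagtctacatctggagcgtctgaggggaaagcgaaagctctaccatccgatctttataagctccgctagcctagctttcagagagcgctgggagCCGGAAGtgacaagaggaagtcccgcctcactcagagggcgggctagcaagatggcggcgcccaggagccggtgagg

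Of the 103 tested genes, 7 were higher and 9 lower in miR-29ab1-/- crypts (edgeR, adjusted p under 0.05). The threshold was passed by 47.3% of all 12908 tested genes, 24.2% higher and 23.1% lower, so a smaller share of respiratory chain genes was called than of genes at large. The median log2 fold change (miR-29ab1-/- over WT) was 0.04 over the 103 genes and 0.03 over all tested genes. In CPM, the 4 miR-29ab1-/- libraries lay wholly above the 4 WT libraries for 6 genes and wholly below for 9, while 22.7% of all tested genes lay wholly above and 22.7% wholly below (45.4% in all). By class, 8 of the 9 lower genes were assembly factors and the other was a core subunit of complex I. In bulk tissue, fewer cells of a type and less RNA per cell cannot be told apart.

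These counts moved with the fit. With replicate number as a block, 15 genes were higher and 17 lower, against 28.4% and 27.5% of all tested genes (56.0% in all), and all 16 of the genes above were among them. Upper-quartile factors gave 6 higher and 14 lower, against 21.3% and 27.1% of all tested genes. With total-count scaling in place of TMM (trimmed mean of M-values) factors, which shifts the median of all genes to -0.23, 3 were higher and 37 lower, against 16.2% and 31.1% of all tested genes. Without miR-29ab1-/- replicate 2 there were 3 higher and 20 lower, against 20.5% and 24.7%. The higher count was also 3 without miR-29ab1-/- replicate 1 (18.1% of all tested genes) or without WT replicate 4 (20.0%), and 4 without WT replicate 3 (21.3%) or with replicates 1 to 3 alone (17.9%).

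**Figure D1:**
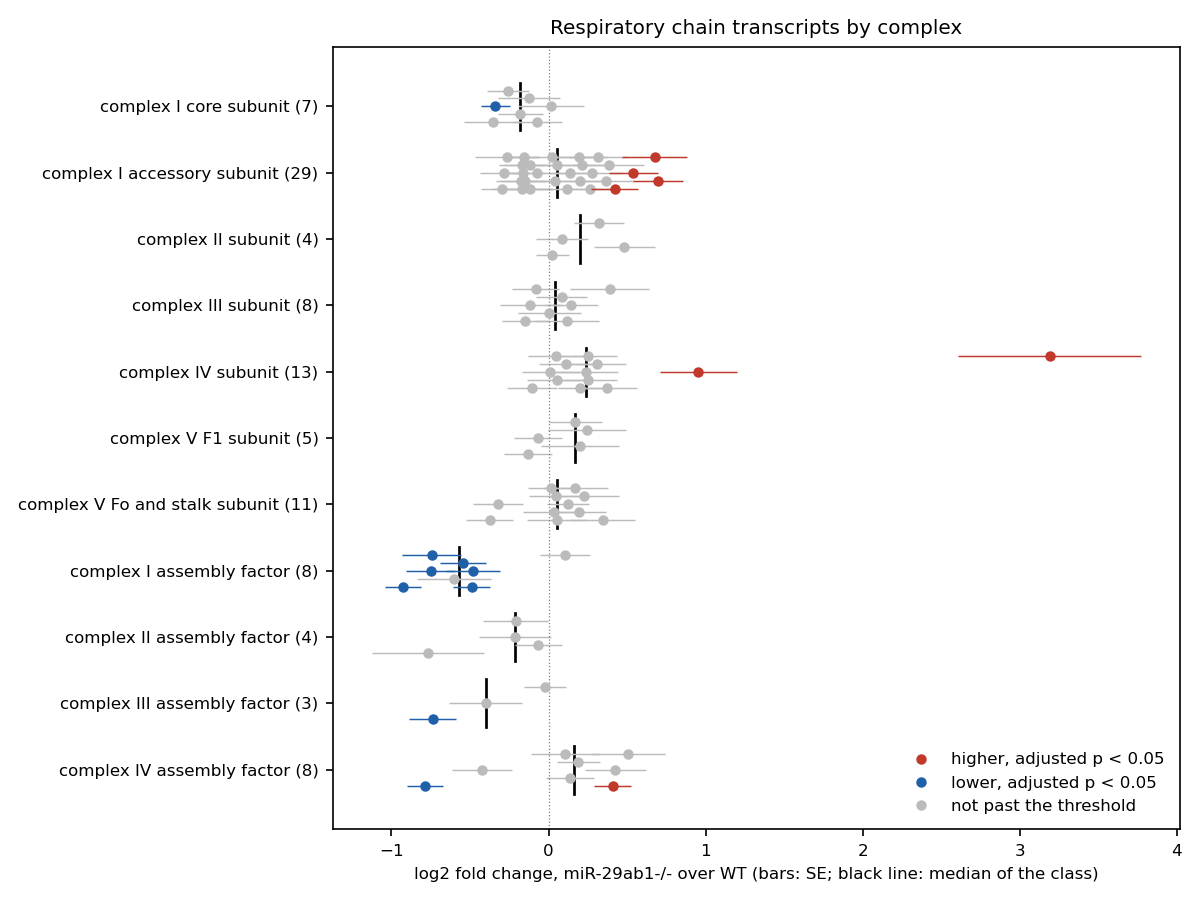
Each point is 1 gene's log2 fold change (miR-29ab1-/- over WT, x axis) with its SE as a bar, in rows by class with the number tested in brackets; red and blue points passed an adjusted p of 0.05 and black lines are class medians. The median of complex I assembly factors (Ndufaf genes) is -0.57, while the subunit classes lie between -0.18 and 0.24. Cox7a1 stands apart at 3.19.

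Of 23 assembly factors tested, 8 were called lower (34.8%, against 23.1% of all tested genes) and 1 higher (4.35%, against 24.2%), with a median log2 fold change of -0.40. Most of the lower ones act on complex I. Of its 8 factors within the naming rule (Ndufaf genes), 6 were called lower and the median was -0.57. Complex I factors with other names are given below and were less uniform. Ndufaf4, which acts in the early steps of complex I assembly together with Ndufaf3, had 31.1, 38.2, 38.7 and 38.6 CPM in the miR-29ab1-/- libraries, against 66.1, 75.5, 61.7 and 75.3 CPM in the WT libraries. Every miR-29ab1-/- library lay below every WT library, a 1.90-fold lower level (log2 fold change -0.93 ± 0.12 SE, adjusted p = 0.00108, edgeR). Ndufaf5, a hydroxylase of the core subunit Ndufs7, had 8.75, 11.1, 9.77 and 10.3 CPM in miR-29ab1-/-, against 17.5, 20.2, 14.3 and 15.2 CPM in WT. Its groups did not overlap either (-0.75 ± 0.16, adjusted p = 0.00443).

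The other lower complex I factors moved less or with more spread. Ndufaf2, a late-acting factor, was 1.68-fold lower (8.94 ± 1.73 CPM in miR-29ab1-/- and 15.0 ± 2.49 CPM in WT, SD, n = 4 each; adjusted p = 0.0107). Exons of an annotated gene on the opposite strand, B230220B15Rik, overlap 65.7% of the exonic bases of Ndufaf2. Since the strandedness of the counting is not given in the sources used here, reads of those genes cannot be told apart. Ndufaf7, a mitochondrial methyltransferase, averaged 16.5 ± 1.41 CPM in miR-29ab1-/- and 23.2 ± 1.97 CPM in WT (adjusted p = 0.00874). Ndufaf1, a member of the complex that builds the membrane arm, averaged 11.5 ± 1.81 CPM in miR-29ab1-/- and 16.7 ± 0.873 CPM in WT (adjusted p = 0.0134; 0.0637 with replicates 1 to 3 alone). Ndufaf3 averaged 8.75 ± 1.24 CPM in miR-29ab1-/- and 12.2 ± 1.75 CPM in WT, at the edge of the threshold (adjusted p = 0.0438). Its adjusted p was 0.0569 without miR-29ab1-/- replicate 1, 0.0636 without miR-29ab1-/- replicate 4, and 0.130, 0.0861 and 0.0605 without WT replicates 1, 2 and 4; with replicates 1 to 3 alone it was 0.0853, without a low-count filter 0.0511, and with a mean of at least 50 counts 0.0503. Total-count scaling moved Ndufaf3 to -0.74 and Ndufaf7 to -0.76 on the log2 scale. Of the 2 factors not called, Ndufaf6 had a log2 fold change of -0.60 (adjusted p = 0.062, and 0.0238 with the replicate block) and Ndufaf8 one of 0.11.

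Outside complex I, 2 assembly factors were lower. Cox10 had 25.3, 30.4, 32.4 and 34.1 CPM in miR-29ab1-/-, against 52.9, 53.6, 49.1 and 55.2 CPM in WT. The WT libraries were tightly grouped and all above the miR-29ab1-/- ones (1.73-fold lower in miR-29ab1-/-, -0.79 ± 0.11, adjusted p = 0.00122). Uqcc1, needed to make cytochrome b of complex III, had 22.1, 34.6, 34.9 and 28.7 CPM in miR-29ab1-/-, against 49.9, 52.7, 46.6 and 51.3 CPM in WT. Its miR-29ab1-/- libraries were more scattered but all below WT (-0.74 ± 0.15, adjusted p = 0.00386). The other complex III factors were not called: Uqcc2 had a log2 fold change of -0.40 (adjusted p = 0.186, and 0.0158 with the block) and Uqcc3 one of -0.02.

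Cox15, which converts the product of Cox10 into heme A, went the other way from Cox10. It was the single assembly factor called higher, with 94.1, 83.1, 67.2 and 85.9 CPM in miR-29ab1-/- against 64.0, 66.7, 60.2 and 58.2 CPM in WT. The groups met closely, with the lowest miR-29ab1-/- library just above the highest WT library (0.41 ± 0.12, adjusted p = 0.0193). The call was lost without miR-29ab1-/- replicate 1 (adjusted p = 0.1000), 2 (0.0775) or 4 (0.0787), without WT replicate 3 (0.0502) or 4 (0.0598), with replicates 1 to 3 alone (0.158), and with total-count scaling (0.13 on the log2 scale, adjusted p = 0.339). Cox15 also carried counts that were not whole in all 8 libraries. Among the other complex IV factors, Cox18, an insertase, had a log2 fold change of -0.42 (adjusted p = 0.0964) and Cox16 one of 0.51 (adjusted p = 0.105, and 0.0324 with the block). Of the 4 complex II factors 0 were called by edgeR, against 47.3% of all tested genes. The count was also 0 by DESeq2, by limma-voom and at an unadjusted p under 0.05. Sdhaf3, at 1.68 ± 0.794 CPM in miR-29ab1-/- and 2.86 ± 0.268 CPM in WT, had the lowest value (-0.77, adjusted p = 0.105), followed by Sdhaf4 (-0.21), Sdhaf1 (-0.21) and Sdhaf2 (-0.07). With the block, 3 assembly factors were higher and 10 lower, against 28.4% and 27.5% of all tested genes. With total-count scaling 0 were higher and 13 lower, against 16.2% and 31.1%. No assembly factor was called higher without miR-29ab1-/- replicate 1, 2 or 4, without WT replicate 3 or 4, or with replicates 1 to 3 alone. In those fits 17.9% to 21.9% of all tested genes were higher.

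**Figure D2:**
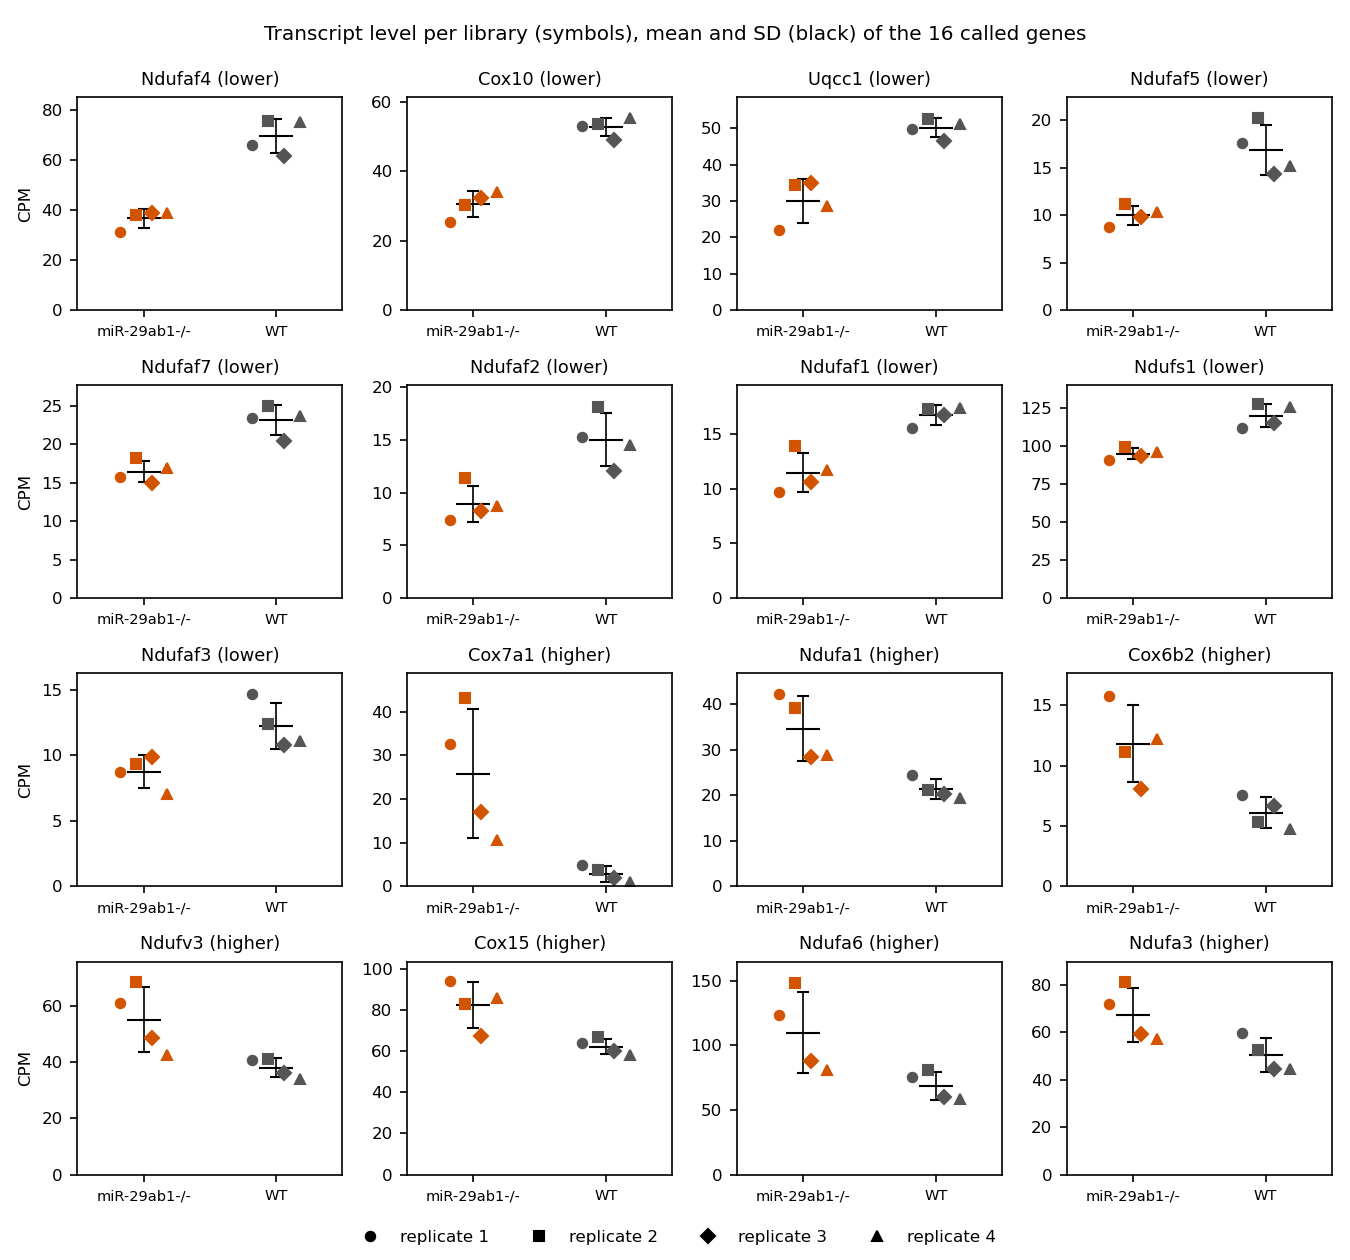
CPM (y axis, from 0) of the 16 called genes in each library, with miR-29ab1-/- to the left of WT, symbols by replicate number, and black bars for mean and SD. The 9 lower genes show no overlap between groups; among the 7 higher genes, miR-29ab1-/- replicates 1 and 2 often lie above replicates 3 and 4, as for Cox7a1 (32.6 and 43.0 against 17.1 and 10.6 CPM), and Ndufa3 overlaps.

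The 36 complex I subunits, 7 core and 29 accessory, had 4 accessory subunits called higher (11.1% of the 36, against 24.2% of all tested genes) and 1 core subunit called lower (2.78%, against 23.1%), with a median of -0.03 on the log2 scale. The lower one was Ndufs1, which carries iron-sulfur clusters in the peripheral arm. It had 90.9, 99.7, 93.8 and 96.0 CPM in miR-29ab1-/-, against 112, 128, 115 and 126 CPM in WT. The spread was small in both groups and the ranges were separate, for a 1.26-fold lower level (-0.34 ± 0.09, adjusted p = 0.0153; 0.0727 with replicates 1 to 3 alone; -0.60 on the log2 scale with total-count scaling). The other 6 core subunits ranged from -0.36 (Ndufs8, adjusted p = 0.139, and 0.016 with the block) to 0.02 (Ndufv2); Ndufs3 was at -0.26 (adjusted p = 0.135, and 0.042 with the block).

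The higher accessory subunits were Ndufa1, Ndufv3, Ndufa6 and Ndufa3. Ndufa1, an X-linked subunit of the membrane arm, had 42.1, 39.2, 28.3 and 28.8 CPM in miR-29ab1-/-, against 24.5, 21.3, 20.2 and 19.4 CPM in WT. Replicates 1 and 2 of miR-29ab1-/- were the highest, and no libraries overlapped (1.62-fold higher, 0.70 ± 0.16, adjusted p = 0.00659). Ndufa6, a LYR-motif protein, had 123, 148, 87.7 and 80.8 CPM in miR-29ab1-/-, against 75.2, 80.7, 60.4 and 58.9 CPM in WT. The groups were separated by a narrow margin (0.68 ± 0.21, adjusted p = 0.0240). Ndufv3, a subunit beside the NADH-binding site, averaged 55.1 ± 11.6 CPM in miR-29ab1-/- and 37.9 ± 3.34 CPM in WT (adjusted p = 0.0191), and Ndufa3, of the membrane arm, averaged 67.3 ± 11.3 CPM in miR-29ab1-/- and 50.3 ± 7.16 CPM in WT with overlapping ranges (adjusted p = 0.0434).

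The call of Ndufa1 held without any 1 library, while the other 3 calls did not. Ndufa6 was not called without miR-29ab1-/- replicate 1 (adjusted p = 0.0876) or 2 (0.0783, with the log2 fold change down to 0.45), or without WT replicate 3 (0.0656) or 4 (0.0671). Ndufv3 was not called without miR-29ab1-/- replicate 1 (0.0829) or 2 (0.0726) or WT replicate 4 (0.0566). Ndufa3 was not called without miR-29ab1-/- replicate 1 (0.142) or 2 (0.160, with 0.26 on the log2 scale), without WT replicate 2 (0.0752), 3 (0.110) or 4 (0.116), or with replicates 1 to 3 alone (0.110). It was also not called by DESeq2 (0.0546), with upper-quartile factors (0.0740) or without a low-count filter (0.0731). With total-count scaling, Ndufa3 (0.14 on the log2 scale, adjusted p = 0.339), Ndufa6 (0.39, adjusted p = 0.0605) and Ndufv3 (0.25, adjusted p = 0.116) were not called, and Ndufa1 was at 0.41. Counts for complex I subunits were 7 higher and 6 lower with the block, 3 and 3 with upper-quartile factors, and 1 higher and 17 lower with total-count scaling. They were 1 higher and 8 lower without miR-29ab1-/- replicate 2, 1 higher without miR-29ab1-/- replicate 1 or WT replicate 4, and 2 higher without WT replicate 3. Of all tested genes, 28.4% were higher and 27.5% lower with the block, 21.3% and 27.1% with upper-quartile factors, and 16.2% and 31.1% with total-count scaling. Without miR-29ab1-/- replicate 2 these shares were 20.5% and 24.7%. The higher share was 18.1% without miR-29ab1-/- replicate 1, 20.0% without WT replicate 4 and 21.3% without WT replicate 3. Ndufa10 had the lowest value of the accessory subunits (-0.29, adjusted p = 0.102, and 0.0304 with the block). Ndufb4 and its near-copy Ndufb4c hold counts that are not whole, and the counting may have split reads between them; neither was called, and Ndufb4b had too few counts to test.

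Of the complex II, III and V subunits, 0 were called in either direction by edgeR, against 47.3% of all tested genes. At an unadjusted p under 0.05, Sdhb and Atp5g2 passed. DESeq2 called 0, against 22.7% higher and 20.6% lower among all genes it tested. In complex V, limma-voom called 1 lower, against 24.2% of all tested genes. Leaving out miR-29ab1-/- replicate 2 gave 2 lower complex V subunits, against 24.7% of all tested genes. Leaving out miR-29ab1-/- replicate 3 gave 1 higher complex II subunit, against 24.5% of all tested genes. The 4 complex II subunits lay between 0.03 (Sdha, the flavoprotein) and 0.48 (Sdhb, the iron-sulfur subunit). Sdhb had 164, 177, 111 and 109 CPM in miR-29ab1-/-, against 112, 115, 89.4 and 83.9 CPM in WT. Its ranges overlapped (adjusted p = 0.0684), but with the replicate block, which compares like-numbered libraries, it was called (adjusted p = 0.00605). Sdhc was at 0.32 (adjusted p = 0.126) and Sdhd at 0.08. The 8 complex III subunits lay between -0.15 (Uqcrc2, adjusted p = 0.443) and 0.39 (Uqcrq, adjusted p = 0.226, and 0.0269 with the block), with Uqcrb at 0.14. The 5 subunits of the catalytic F1 part of complex V lay between -0.13 (Atp5a1, adjusted p = 0.502) and 0.24 (Atp5c1, adjusted p = 0.436), with Atp5d at 0.17. In the 11 of the membrane part and stalks, the lowest were Atp5g2 (-0.38, adjusted p = 0.0615, and 0.0311 with the block) and Atp5g1 (-0.32, adjusted p = 0.12), and the highest was Atp5o (0.35, adjusted p = 0.196). Atp5s (-0.16) and the supercomplex factor Cox7a2l (-0.00) were not called. A value that missed the threshold does not show that the groups were alike.

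The largest log2 fold change of any member was in complex IV, in a tissue-restricted isoform. Of its 13 tested subunits 2 were higher, Cox7a1 and Cox6b2 (15.4%, against 24.2% of all tested genes), and 0 were lower (against 23.1%). The median was 0.24. Cox7a1, the isoform of subunit 7a typical of heart and skeletal muscle, had 32.6, 43.0, 17.1 and 10.6 CPM in miR-29ab1-/-, against 4.86, 3.86, 1.85 and 0.936 CPM in WT. Every miR-29ab1-/- library was above every WT library although both groups varied widely, for a 9.12-fold higher level (3.19 ± 0.58, adjusted p = 0.00254). In both groups replicates 1 and 2 had the highest Cox7a1 levels and also the highest enterocyte marker sums. Of 10 muscle markers 7 were in the table, and 5 of these were under 1 CPM in every library. The summed level was 24.5, 52.0, 23.1 and 35.5 CPM in miR-29ab1-/- and 13.1, 11.7, 19.1 and 5.62 CPM in WT. Acta1 alone, which was called higher (edgeR, adjusted p = 0.0187, and up to 0.0669 with 1 library left out), made up most of each sum. It had 21.3, 48.0, 18.9 and 33.2 CPM in miR-29ab1-/- and 9.09, 8.43, 17.9 and 3.36 CPM in WT. Mylpf, the other muscle marker tested, was not called (0.24, adjusted p = 0.675). The 4 brown fat markers in the table were under 1 CPM in every library. The part of enterocyte and muscle markers in the Cox7a1 result was not tested.

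The ubiquitous partner Cox7a2 averaged 99.9 ± 24.7 CPM in miR-29ab1-/- and 99.1 ± 13.2 CPM in WT (0.01, adjusted p = 0.963). Per length, in FPKM (fragments scaled by gene length and library total), Cox7a1 therefore made up 42.9%, 46.8%, 35.0% and 25.5% of the Cox7a pair in miR-29ab1-/-, against 9.69%, 9.09%, 5.03% and 2.64% in WT. The means were 37.5% ± 9.40 in miR-29ab1-/- and 6.61% ± 3.36 in WT (SD, n = 4 each), with no overlap. Cox6b2, an isoform known from testis, had 15.8, 11.1, 8.08 and 12.3 CPM in miR-29ab1-/-, against 7.61, 5.38, 6.69 and 4.74 CPM in WT. The lowest miR-29ab1-/- library was just above the highest WT library (1.94-fold higher, 0.95 ± 0.24, adjusted p = 0.0114; 0.0748 with replicates 1 to 3 alone). It made up 3.92% ± 1.04 of the Cox6b pair in miR-29ab1-/- and 2.36% ± 0.365 in WT, a small share in both. Cox6b1, the common isoform, was at 0.25 (adjusted p = 0.280).

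Other isoform families of complex IV were made up almost wholly of the common form in both groups. Cox4i2, Cox6a2 and Ndufa4l2 held 0 to 4 counts per library and were not tested; Cox6a2 was at 0 in all 4 WT libraries. Cox4i1 was at 0.24 (adjusted p = 0.352), Cox6a1 at 0.37 (adjusted p = 0.136, and 0.0369 with the block) and Ndufa4, now placed in complex IV, at 0.05. Cox5a had the lowest value of the complex (-0.11). In complex V, 3 genes encode the same mature c subunit of the rotor ring. Atp5g3 made up 51.1%, 46.1%, 45.2% and 46.8% of their summed FPKM in miR-29ab1-/-, against 38.8%, 43.0%, 40.8% and 41.6% in WT. No miR-29ab1-/- library overlapped WT (47.3% ± 2.63 in miR-29ab1-/- and 41.0% ± 1.76 in WT). Atp5g2 was the counterpart, at 27.7% ± 1.53 in miR-29ab1-/- and 31.5% ± 0.667 in WT with no overlap, while Atp5g1 overlapped (25.0% ± 1.32 in miR-29ab1-/- and 27.5% ± 1.37 in WT). These shares were not tested, and Atp5g3 by itself was at 0.02 (adjusted p = 0.929).

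**Figure D3:**
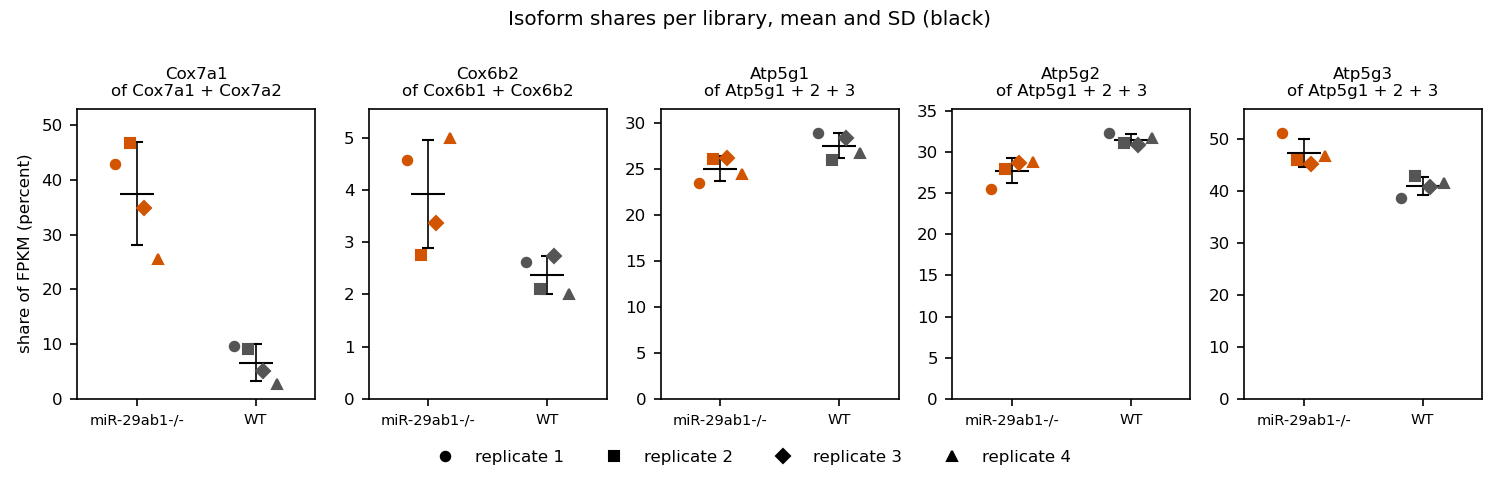
Share of summed FPKM (percent, y axis from 0) that each isoform took in its family, per library, with miR-29ab1-/- to the left of WT, symbols by replicate number, and black bars for mean and SD. Cox7a1 lies at 25.5% to 46.8% in miR-29ab1-/- and at 2.64% to 9.69% in WT; Atp5g3 and Atp5g2 also do not overlap, while Cox6b2 averages 3.92% in miR-29ab1-/- and 2.36% in WT.

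Libraries of the same group differed along a common line in nearly all respiratory chain genes. The mean log2(CPM + 1) of replicates 1 and 2 was above that of replicates 3 and 4 for 97 of 103 genes in miR-29ab1-/- (median difference 0.47) and for 100 of 103 in WT (0.26). Over all 12908 tested genes the same held for 5904 in miR-29ab1-/- (median -0.05) and 7380 in WT (0.05). This split of replicates was outside the planned comparisons and is not given by the labels. Genes of the same libraries are not independent, so these gene counts describe the libraries and were not tested. All subunits of complexes II to V (4, 8, 13 and 16 genes) followed it in both groups, as did 36 of 36 complex I subunits in miR-29ab1-/- and 35 of 36 in WT. Assembly factors followed it less, with 17 of 23 in miR-29ab1-/- and 21 of 23 in WT. The summed CPM of complex IV subunits was 3370, 3958, 2509 and 2532 in miR-29ab1-/-, against 3005, 2857, 2479 and 2484 in WT, and the ranges overlapped. For complex V the sums were 6263, 7327, 4894 and 4977 CPM in miR-29ab1-/- and 6373, 6349, 5285 and 5520 CPM in WT. For the Ndufaf factors of complex I, of which 6 of 8 were called lower above, the sums did not overlap between groups. All 4 of their miR-29ab1-/- sums (114, 137, 116 and 122 CPM) lay below all WT sums (191, 202, 164 and 190 CPM). Ndufaf4 was the largest part of these sums, with a mean of 36.7 CPM in miR-29ab1-/- and 69.7 CPM in WT. The enterocyte marker sum given above was also higher in replicates 1 and 2 of both groups, and fibroblast and smooth muscle markers summed to 42.9, 34.7, 257 and 244 CPM in miR-29ab1-/- and 37.6, 46.5, 222 and 67.9 CPM in WT. What a replicate number marks is not given in the labels, and the part of these markers was not tested.

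**Figure D4:**
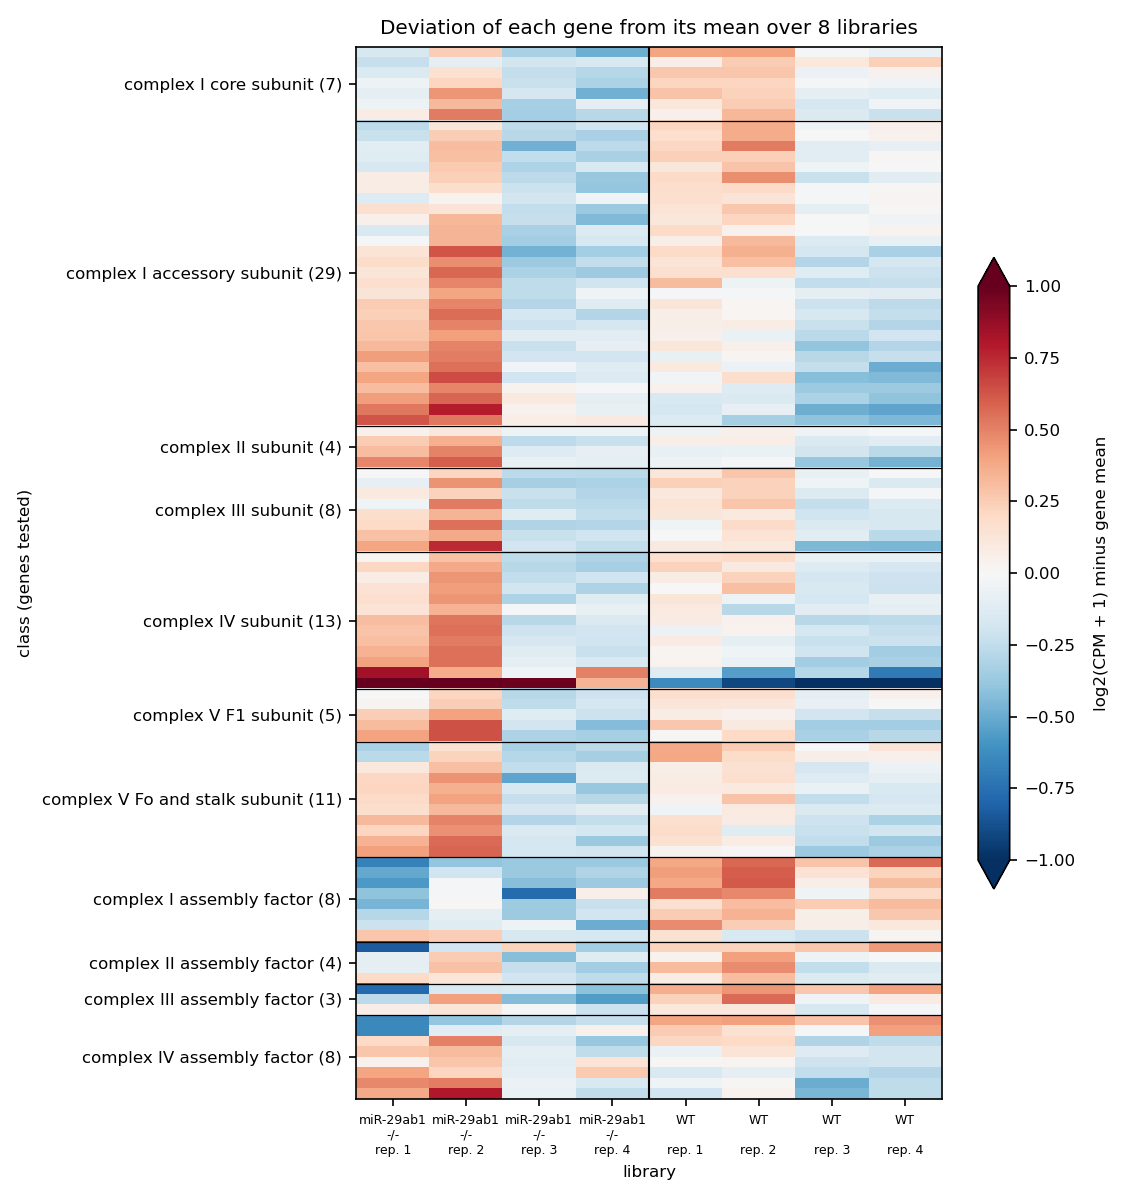
Each row is 1 tested gene and each column 1 library, with miR-29ab1-/- replicates at the left and WT replicates at the right; colour gives log2(CPM + 1) minus the gene's mean over the 8 libraries, limited to -1 and 1. Subunit rows are mostly red in replicates 1 and 2 and blue in replicates 3 and 4 of both groups. Most complex I assembly factors (Ndufaf genes) are blue in miR-29ab1-/- and red in WT.

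By level per length, the classes had 1 order in both genotypes. The median FPKM in miR-29ab1-/- was 10.9 for assembly factors, 95.4 for complex I subunits, 144 for complex II, 263 for complex III, 302 for complex IV and 326 for complex V. In WT it was 20.7 for assembly factors, 120 for complex I subunits, 148 for complex II, 301 for complex III, 350 for complex IV and 417 for complex V. FPKM scales by library total, so most genes read lower in miR-29ab1-/- on this scale than in CPM with TMM factors. Cox7c had the highest mean of all, 1077 FPKM in miR-29ab1-/- and 1222 FPKM in WT. The highest in complex V was Atp5b, with 842 FPKM in miR-29ab1-/- and 1072 FPKM in WT. The lower assembly factors were of low level, and the highest mean among them was 14.5 FPKM in miR-29ab1-/- and 29.4 FPKM in WT, for Ndufaf2.

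Respiratory chain genes outside the naming rule were examined in a list of 43 further subunits and assembly factors, of which 40 were tested. In this list 2 of 40 genes were higher (against 24.2% of all tested genes) and 11 lower (27.5%, near the 23.1% of all tested genes), with a median of -0.28. Tmem70, an assembly factor of ATP synthase, had 33.9, 46.1, 40.6 and 36.5 CPM in miR-29ab1-/- against 60.0, 71.1, 58.9 and 63.0 CPM in WT. Its groups did not overlap (-0.69 ± 0.12, adjusted p = 0.00222). Acad9, a partner of Ndufaf1 in complex I assembly, was at -0.58 ± 0.11 (adjusted p = 0.00259), and Bcs1l, which inserts the Rieske protein into complex III, at -0.73 ± 0.15 (adjusted p = 0.00398). Among further complex I factors of this list, Ecsit (-0.57, adjusted p = 0.00636) and Foxred1 (-0.46, adjusted p = 0.0190) were also called lower. Tmem126a (-0.31, adjusted p = 0.196, and 0.0310 with the block), Nubpl (-0.46), Dmac1 (-0.29), Tmem186 (-0.24) and Timmdc1 (-0.17) were not called. Lyrm2 (0.36) and Tmem126b (0.09) went the other way and were not called either. The 2 higher genes were Higd2a, a factor of complex IV assembly (0.73 ± 0.17, adjusted p = 0.00675), and Sco2, a copper chaperone of complex IV (1.05 ± 0.26, adjusted p = 0.00951). Cytochrome c itself, Cycs, had 799, 707, 451 and 451 CPM in miR-29ab1-/-, against 484, 480, 369 and 381 CPM in WT. The ranges overlapped (0.49 ± 0.22, adjusted p = 0.0951), and it was called with the block (adjusted p = 0.0198); cytochrome c1, Cyc1, was at -0.32 (adjusted p = 0.125, and 0.0242 with the block). Counts in this list were 4 higher and 14 lower with the block, against 28.4% and 27.5% of all tested genes. Upper-quartile factors gave 2 and 17 (against 21.3% and 27.1%), and total-count scaling 2 and 24 (against 16.2% and 31.1%). Without miR-29ab1-/- replicate 3, 6 were higher (against 24.5%). Without miR-29ab1-/- replicate 2, 18 were lower (against 24.7%), and without WT replicate 1, 7 were lower (against 18.7%). Subunits encoded in the mitochondrion were also searched for by symbol, but none of those symbols was among the deposited genes, so they could not be tested.

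Among 21 regulators of respiratory genes and of mitochondrial DNA, 3 were higher (14.3%, against 24.2% of all tested genes) and 9 lower (42.9%, against 23.1%), with a median of -0.38. The coactivator Ppargc1a had 31.5, 40.7, 20.3 and 29.8 CPM in miR-29ab1-/-, against 7.40, 7.35, 5.74 and 9.64 CPM in WT. All miR-29ab1-/- libraries were well above WT (2.02 ± 0.24, adjusted p = 0.00108). Its partner, the nuclear receptor Esrra, was at 0.87 ± 0.16 (adjusted p = 0.00235), and Polg2, a subunit of the mitochondrial DNA polymerase, at 0.98 ± 0.22 (adjusted p = 0.00603). Genes that act on mitochondrial DNA and its transcription were among the lower ones: Tfb2m was at -0.71 ± 0.13 (adjusted p = 0.00281), Ssbp1 at -0.73 ± 0.14 (adjusted p = 0.00316) and Tfam at -0.47 ± 0.10 (adjusted p = 0.00410). Nrf1, whose motif was searched above, was lower (-0.38 ± 0.10, adjusted p = 0.0132), and Gabpa was at -0.25 (adjusted p = 0.0720). With the block 4 were higher and 12 lower, against 28.4% and 27.5% of all tested genes. With replicates 1 to 3 alone 5 were lower (against 18.5% of all tested genes). Without miR-29ab1-/- replicate 1 (20.1%) or without WT replicate 1 (18.7%) or 4 (18.2%), 6 were lower.

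**Figure D5:**
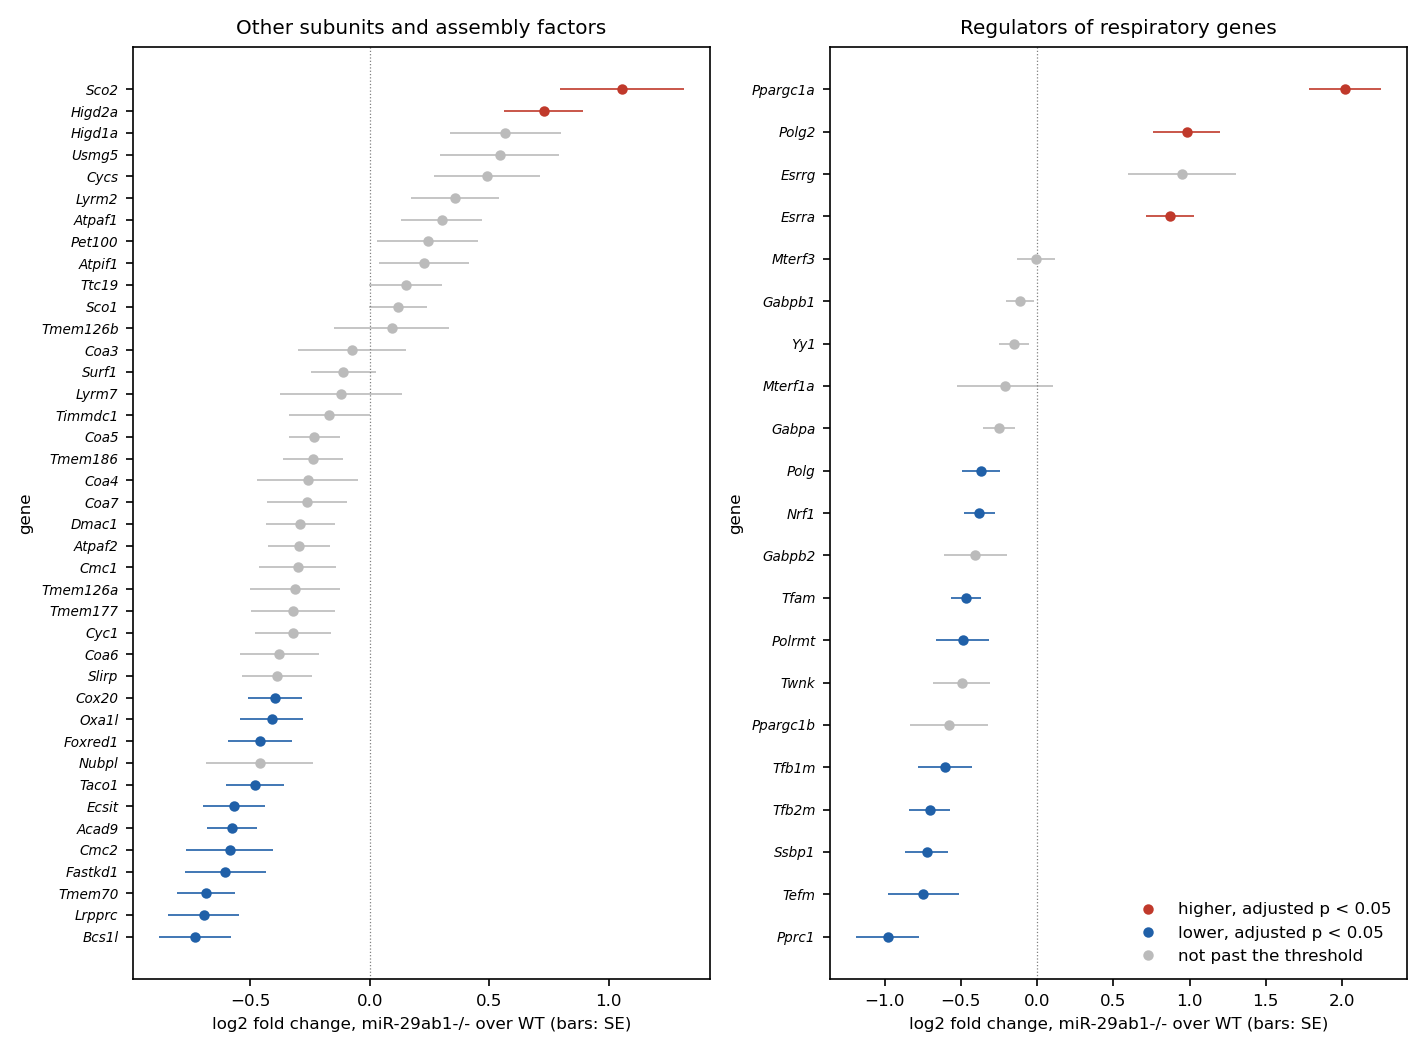
Log2 fold change (miR-29ab1-/- over WT, x axis) with SE for each tested gene of the 2 lists, ordered by value; red and blue points passed an adjusted p of 0.05. On the left 11 of 40 genes are lower and 2 higher; on the right Ppargc1a stands highest at 2.02 and 9 of 21 genes are lower.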

How the data were processed

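RNA from small intestinal crypts was extracted with TRIzol, per the labels' protocols. The submitters' processing notes list HISAT2 and DESeq2 but no role or version. Not given in the sources used here are the counting program, genome build, annotation, strandedness and radiation dose. Per the file headers, the authors deposited a read count for each gene and library. Between 8.04% and 9.18% of these values per library were not whole, so the deposited values were treated as estimated counts and rounded. The second deposited set of columns has no stated unit and was taken to be FPKM from its ratio to the counts; the authors' group averages were not used.

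The quasi-likelihood test of edgeR 4.0.16 (R 4.3.3) was run on genes kept by filterByExpr, with TMM factors (glmQLFit, glmQLFTest; genotype as the one term; Benjamini-Hochberg adjustment over all 12908 tested genes; threshold 0.05). CPM uses TMM factors, and the SE is the size of the log2 fold change divided by the square root of F. The script was tested on simulated counts. Alternatives used other size factors, filters and samples, DESeq2 1.42.0 and limma-voom (limma 3.58.1). Deviations of same-numbered libraries from their group means correlated at 0.35 to 0.53, and those of differently numbered ones at -0.52 to 0.50. The 2 ranges overlap: miR-29ab1-/- replicate 1 and WT replicate 2 correlated at 0.50, the 2 libraries numbered 2 at 0.35. Since each same-numbered pair was above 0.1, an alternative fit took samples with a shared number as pairs (the replicate block). The main calls and their adjusted p-values do not use this pairing, and the labels do not explain the number. Blocked values stand beside the named results they change.

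Members, classes and lists were chosen with earlier results of these data known. Named are all called members, up to 3 with the smallest p and the extremes of each class, and the isoform families. Also named are up to 3 called genes per direction in each pathway list, and 6 fixed genes (Cycs, Cyc1, Ppargc1a, Nrf1, Gabpa and Tfam). The crypt and muscle markers, and the further complex I factors outside the naming rule, were named after their values were seen. The split by replicate number, used to describe respiratory chain levels, was outside the planned comparisons.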

Additional observations from a re-analysis of the deposited data

Results flagged for a closer look

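In 48 checks of single libraries against the rest of their group (24 genes in 2 groups of 4), 3 values stood apart by Dixon's criterion. Chance gives about 1 in 20, so 3 in 48 is near that rate. Ndufaf4 was at 31.1 CPM in miR-29ab1-/- replicate 1, below the other 3 libraries of its group at 38.2 to 38.7 CPM. Atp5g1 was at 261 CPM in miR-29ab1-/- replicate 2, against 177 to 185 CPM in the other 3. Atp5g2 was at 215 CPM in the same library, against 155 to 161 CPM in the other 3.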

How the results depend on the processing

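No called gene changed direction under the alternatives run, which did not include division of CPM by transcript length, since the files name no build. With DESeq2 size factors or counts rounded down, every count given by complex stayed within 1.5 times. The block left all 16 calls in place and gave 15 genes higher and 17 lower in all, 3 assembly factors higher, complex I subunits 7 higher and 6 lower, 1 higher each in complexes II and III, 1 lower in complex V, and 4 higher in the list of other subunits. Total-count scaling gave 3 higher and 37 lower in all, assembly factors 0 higher and 13 lower, complex I subunits 1 higher and 17 lower, and 2, 1 and 4 lower in complexes III, IV and V, with 24 lower among other subunits. Upper-quartile factors gave 14 lower in all, 3 in complex I, 2 in complex V and 17 among other subunits. With replicates 1 to 3 alone 4 were higher in all, 0 assembly factors were higher, 0 complex I subunits were lower, 1 complex IV subunit was higher and 5 regulators were lower. A mean of at least 50 counts gave 1 complex II subunit higher, and limma-voom 1 complex V subunit lower. Leaving out 1 library at a time gave 3 to 8 higher and 8 to 20 lower in all, 0 to 1 assembly factors higher and 7 to 10 lower, complex I subunits 1 to 4 higher and 1 to 8 lower, 0 to 1 complex II subunits higher, 0 to 2 complex V subunits lower, 2 to 6 higher and 7 to 18 lower among other subunits, and 3 to 4 higher and 6 to 9 lower among regulators. By counts instead of FPKM, Cox7a1 made up 19.2% of the Cox7a pair in miR-29ab1-/- and 2.67% in WT. The shorter ETS letters GGAAG were found in 73.9% of members' windows and in 79.1% of those of all tested genes, the reverse order. The causes of these differences were not tested.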
